A study of Mus musculus with 173 samples.

Results

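Blood vessels of the brain are built from endothelial cells, which line the vessel and form the blood-brain barrier, and from mural cells, which wrap it. Mural cells comprise the pericytes of capillaries and the smooth muscle cells of larger vessels, whose contraction sets the vessel's width. Endothelial cells secrete platelet-derived growth factor B (Pdgfb), and its receptor Pdgfrb on mural cells holds them at the vessel wall. The libraries described here are 12 of the 172 single-cell RNA-seq libraries of a series on adult neurogenesis: 8 with an endothelial signature and 4 with a mural one.

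All libraries came from the dentate gyrus of C57BL/6 mice aged 8 to 12 weeks. The labels give no treatment, genotype, sort gate, animal or date, and the letters C, N and R that open the library titles are not spelled out. The table lists a transcript of the fluorescent protein eCFP, and what drives it is not given in the sources used here. The 8 endothelial libraries were C139, C140, N3, N5, N6, N7, N12 and N26, and the 4 mural libraries were C129, N14, N16 and N22. Values are TPM, a share of transcripts per length scaled to the same total in each library, so the sequencing depth of a cell is unknown.

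The members were chosen by measured values, among the 168 C and N libraries. An endothelial score was the mean log2(TPM + 1) of Cldn5, Flt1, Cdh5, Esam, Ly6c1, Slco1a4 and Egfl7. A mural score was that of Pdgfrb, Rgs5, Vtn, Acta2, Myl9 and Higd1b. A library needed a score of at least 4 that exceeded its other score, and a TPM below 1000 for Slc1a3, the glutamate transporter of stem cells and astrocytes. Endothelial scores ran from 4.18 in C140 to 9.58 in N3, beside mural scores of 0.38 to 3.18. In the mural libraries the mural score ran from 8.70 to 10.21 and the endothelial score from 0.63 to 2.07. Just inside the limit lay C140 (4.18) and N5 (4.70). Just outside lay N4 (3.78), N21 (3.21) and C137 (3.12), although N4 had 10350 TPM of Cldn5 and N21 33005 TPM of Ly6c1. The Slc1a3 limit left out C85 (endothelial score 6.05), C128 and C114 (mural scores 5.60 and 4.48). The 4 R libraries, to which the rule was not applied, reached endothelial scores of at most 2.86 and mural scores of at most 1.90.

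**Figure D1:**
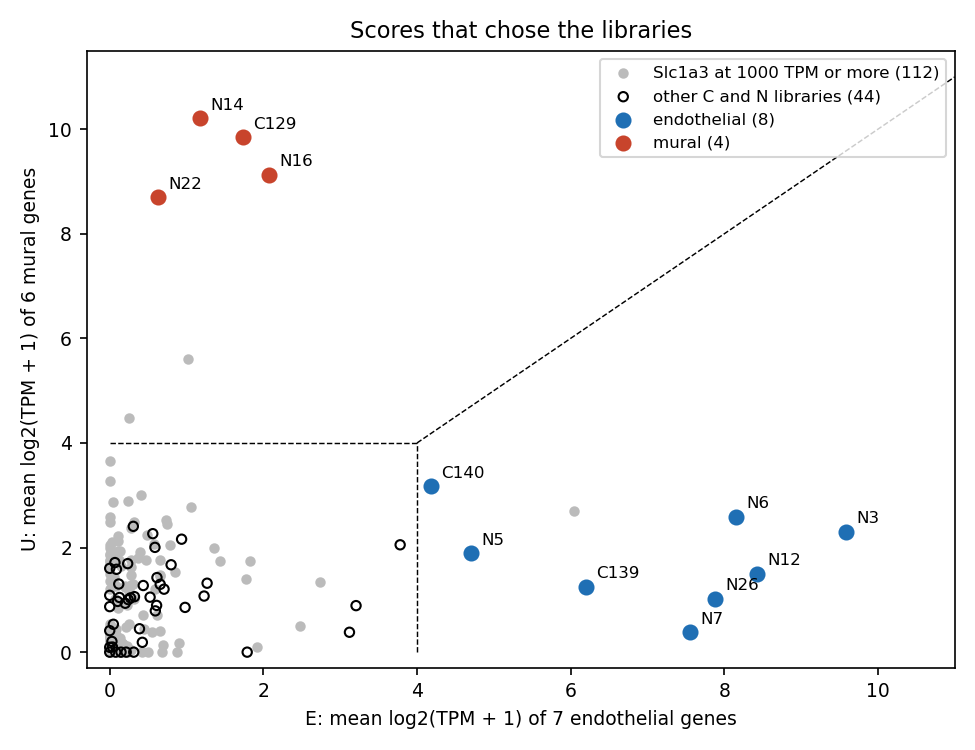
Endothelial score (x axis) against mural score (y axis), both means of log2(TPM + 1), for the C and N libraries; blue points are the 8 endothelial and red points the 4 mural libraries, grey points have Slc1a3 at 1000 TPM or more, open circles are the remaining libraries, and dashed lines mark the score of 4 and equality. The mural libraries lie at 8.70 and above on the y axis, while endothelial libraries spread from 4.18 to 9.58 on the x axis.

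Some members carried transcripts of other cell types, and these libraries are named beside the results they touch. C140 had the highest list means of the 12 for neuron genes (4.39, against 0.11 to 1.30 in the other endothelial libraries) and for proliferation genes (6.01, against 0.55 to 1.93). C139 had the highest for oligodendrocyte lineage genes (4.46), with 1065 TPM of Olig1, and N5 followed at 3.17. For stem cell and astrocyte genes C140 was again highest (4.49, above its endothelial score) and C139 had 3.37, against 1.57 to 3.07 in the other endothelial libraries. Fabp7, a fatty acid binding protein of radial glia, had 2861 TPM in C139 and 2908 TPM in C140, and at most 42.6 TPM in the other members. Globin transcripts made up 14.6% of the TPM of N26 and at most 0.265% of that of any other member. The microglial list mean was at most 1.62 in the 12 libraries. Of the 10 fibroblast genes, 1 passed the filter described below: Col1a2, a collagen chain, had 594 TPM in N14 and 146 TPM in N22, 5.72 TPM in C129, and at most 1.09 TPM elsewhere among the members, whereas Col3a1 and Dcn were listed at 0 in all 12. The part of these other transcripts in the differences below was not tested. Counts for gene lists are given also without C140 and in N libraries only. Genes seen at a TPM of at least 1 numbered 2710 to 4718 per endothelial library and 2272 to 3099 per mural library, against 1600 to 7192 in the other 160.

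The comparison of the classes describes how the lining and the wrapping cells of vessels differ in these libraries. Because no animal is named, each class counts as 1 sample and no test was possible. Each SD below is a spread between libraries. A difference means the mean log2(TPM + 1) of the endothelial libraries minus that of the mural libraries, and a gene was counted as higher in a class when this was at least 2 in size. Of the 8002 genes that reached a TPM of 1 in at least 2 of the 12 libraries, 13.9% were higher in endothelial and 8.45% in mural libraries, and the median difference over all of them was 0.57. The classes were separate, with each library of one above each of the other, for 0.5% of genes in the endothelial direction and 0.387% in the mural direction. Each list count over all 12 libraries stands against these shares of 13.9% (endothelial) and 8.45% (mural). List counts without C140 stand against 1031 genes higher in endothelial and 723 in mural libraries, of 7430. Those in N libraries only stand against 1050 and 979 of 6622, a larger mural share. Nothing is read from these comparisons, since the rule used the same contrast. A gene listed at 0 throughout 1 class could pass the filter only through the other class, so its direction was fixed in advance. The balance of calls depended on scaling: 62.2% of the calls were higher in endothelial libraries with TPM as deposited and 41.1% after each library was multiplied to the same median over the 229 genes seen in all 12. The median difference over all genes was then 0.27, and list medians are best read against these medians. An exact 0 may be a failed estimate, so such genes are said to be listed at 0. A gene seen in 0 of 4 libraries could still be seen in up to 60.2% of such cells (exact 95% interval 0 to 60.2%). The limit of 3 counts gives 75%, a rough value for so few libraries. Both cover counting error only and take the cells as independent draws, although measured values chose them.

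Of the genes that chose the endothelial libraries, Ly6c1, a GPI-anchored surface protein of endothelium, was the most uniform. It ran from 801 through a median of 7870 to 20461 TPM in the endothelial libraries and was 0, 0, 12.3 and 2.33 TPM in C129, N14, N16 and N22. Cldn5, the main tight junction claudin of brain endothelium, had 824 TPM in C139, 591 in N7 and 336 in N12, but was listed at 0 in N5 and had 1.35 TPM in N26. The organic anion transporter Slco1a4 ran from 2.48 (N5) to 4009 TPM (N7). Cdh5, the cadherin of endothelial adherens junctions, was listed at 0 in N5 and N6, and the secreted protein Egfl7 in C139 and C140. No single marker apart from Ly6c1 and Slco1a4 therefore reached a TPM of 1 in all 8.

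Esam, an adhesion molecule in the endothelial score, did not separate the classes. It had 1237, 153, 688 and 0.68 TPM in the mural libraries C129, N14, N16 and N22, and 0 to 2161 TPM in the endothelial libraries, with a difference of -0.55. Its means were 6.38 ± 3.42 (SD, n = 8) and 6.93 ± 4.31 (SD, n = 4). The highest value lay in an endothelial library (N3) and the next in a mural library, so that the ranges overlapped over nearly their whole length.

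Endothelial genes outside the rule were seen in some of the endothelial libraries and rarely in mural ones. Of the 32 genes of this list, 27 passed the filter, 20 were higher in endothelial libraries and 0 in mural libraries. The median difference was 2.94 (2.52 without the filter and 7.16 from mean TPM). Of the list, 22 genes were listed at 0 in all 4 mural libraries, and the direction of those that passed was thus fixed by the filter. Without C140, 22 genes were higher, and in N libraries only, 23.

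Ly6a, also known as Sca-1, was the most evenly seen of them. It ran from 277 through 5505 to 19402 TPM in endothelial libraries, and had 19.6 TPM in N16 and 0 in the other mural libraries, so the classes were separate. Ly6a, Ly6c1, Ly6e and Ly6i belong to 1 family of similar genes, whose reads may be divided among them. Fli1, an ETS transcription factor of endothelium and blood, had 317 to 1531 TPM in the 6 N libraries and was listed at 0 in C139 and C140. The adhesion receptor Eltd1 was listed at 0 in C139, N12 and all mural libraries and reached 2414 TPM in N7. Ctla2a ran from 16.6 to 2889 TPM, overlapping the 22.4 TPM of C129.

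The classical receptors were patchy. Pecam1, the junctional protein CD31, was seen at 1415 TPM in N6, 274 in N7 and 1.5 in N5, and listed at 0 in the other 5 endothelial libraries. Kdr, the main VEGF receptor, reached 1020 TPM in N5, 56.99 in N7 and 8.11 in C139. Tek, the angiopoietin receptor, reached 996 TPM in N26, 654 in N7 and 98.03 in C139. None of these 3 genes was seen in a mural library. Nos3, the endothelial nitric oxide synthase, was seen in the 6 N libraries at 14.8 to 382 TPM and in neither C139 nor C140. The list mean was 1.43 in C139 and 1.22 in C140, against 2.95 to 4.94 in the N libraries.

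Barrier genes were higher in endothelial libraries almost throughout. Of 23 genes of transport across the barrier, 21 passed the filter, and 20 of these were higher in endothelial libraries, where 13.9% of all genes were; the median difference was 3.92, and 2.17 with a pseudocount of 10. Without C140, 20 of 21 genes were higher, and in N libraries only, 19 of 20. Of the list, 8 genes were listed at 0 in all mural libraries. Per library, the list mean ran from 3.52 to 7.36 in the endothelial and from 0.37 to 1.21 in the mural class. The highest mean among the other 160 libraries was 4.61.

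Slc2a1, the glucose transporter GLUT1 of the barrier, ran from 13.2 through 943 to 1914 TPM in endothelial libraries and was 0, 0, 0 and 1.35 TPM in the mural ones (8.38 ± 2.93 against 0.31 ± 0.62 on the log2 scale). Slc6a6, the taurine transporter, had a narrow range, from 134.4 to 784 TPM, against at most 0.60 TPM in mural libraries (8.47 ± 0.89 against 0.28 ± 0.33). Itm2a, a membrane protein long used as a marker of brain endothelium, ran from 398 to 18742 TPM and reached 12.8 TPM in N16. Pltp, the phospholipid transfer protein, ran from 3.74 to 3609 TPM. For these 4 genes the classes were separate, although each was also seen outside the 12 libraries, Slc2a1 in 52 and Itm2a in 76 of the other 160.

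Other barrier genes varied more between libraries. Abcb1a, the efflux pump P-glycoprotein, was at 0.78 TPM in C139 and ran up to 896 TPM in N7, and the highest mural value was 1.12 TPM. Car4, a membrane carbonic anhydrase, reached 12092 TPM in N7 and was listed at 0 in N26. The thyroid hormone carrier Slco1c1 was listed at 0 in C140 and in all mural libraries and reached 2387 TPM in N26. Mfsd2a, the carrier of lysophosphatidylcholine, had 714 TPM in C139, 99.8 in N3 and 2.18 in N12 and was listed at 0 in the other 5. Bsg, the immunoglobulin protein basigin, ran from 630 to 30299 TPM and overlapped the mural library N22 (1891 TPM).

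Junction and Wnt genes gave smaller counts. Of 14 junction genes passing, 5 were higher in endothelial libraries and 0 in mural ones, beside 13.9% and 8.45% of all genes. Without C140 the counts were 6 and 0, and in N libraries only, 7 and 1. Ocln, the tight junction protein occludin, had 1101 TPM in N6, 269 in N7, 192 in C140 and 130.5 in N26, and was listed at 0 in the other 8 members. Tjp1, its scaffold ZO-1, ran up to 342 TPM in N3 and had 11.3 TPM in N14. Of 10 genes of the Wnt pathway of the barrier, 2 were higher: Lef1, a nuclear partner of beta-catenin, with 3663 TPM in N6 and at most 2.72 TPM in a mural library, and the receptor Fzd6. This share was close to the 13.9% of all genes. Without C140, 3 of 8 Wnt genes were higher, and in N libraries only, 4 of 7. Jam3 and Marveld2, both junction proteins, lay in the opposite direction without reaching the fold.

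**Figure D2:**
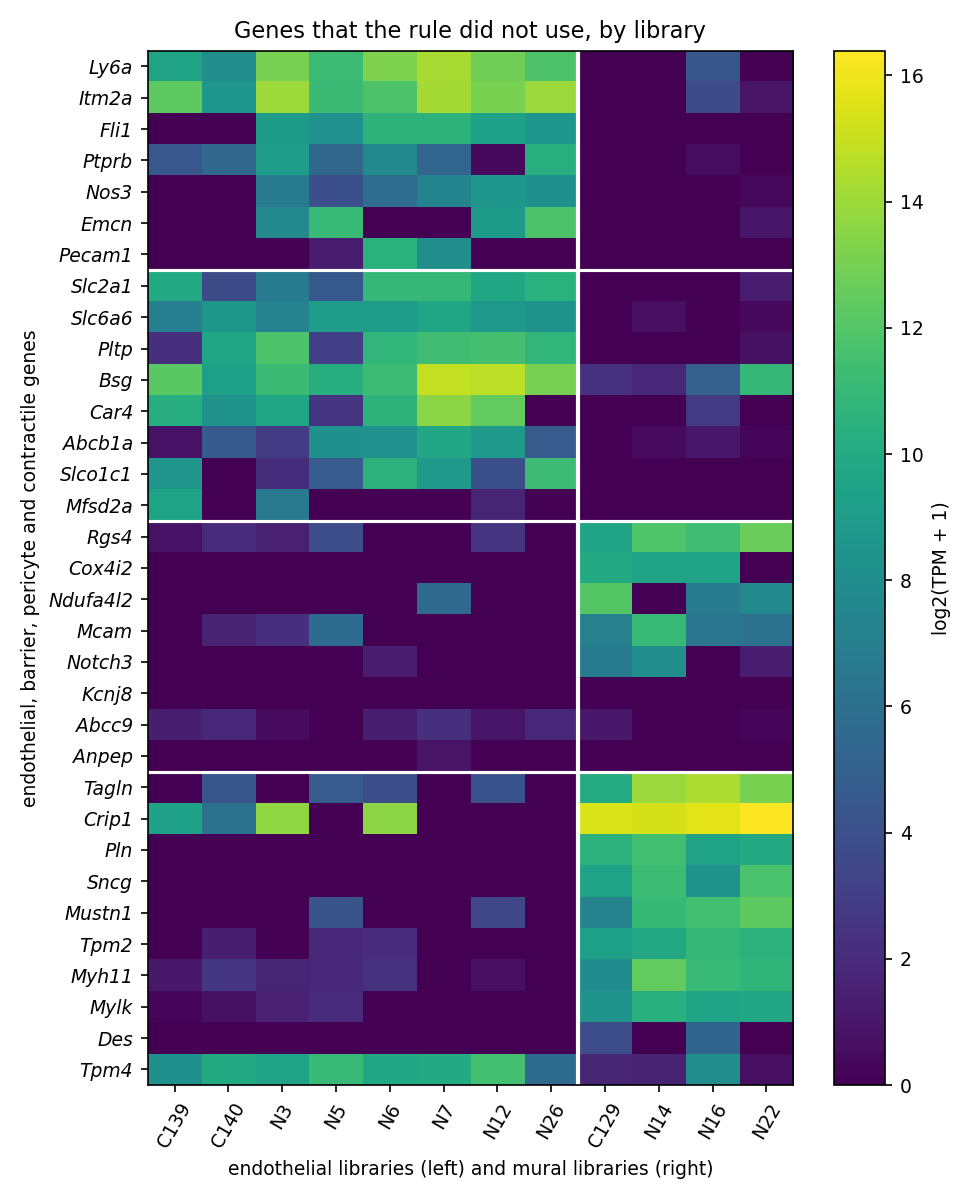
Heat map of log2(TPM + 1) for genes outside the rule, in rows, in the 8 endothelial and 4 mural libraries, in columns; white lines divide endothelial, barrier, pericyte and contractile genes. Itm2a and Ly6a are seen in all endothelial libraries, Pecam1 and Mfsd2a in few, and Kcnj8 is listed at 0 throughout.

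On the mural side, the genes of the rule are given as a description, since they chose the libraries. Acta2, smooth muscle actin, had 1893, 27614, 18448 and 12333 TPM in C129, N14, N16 and N22, and at most 59 TPM in an endothelial library. Myl9, the regulatory light chain of smooth muscle myosin, had 738, 20588, 25284 and 15135 TPM there. In both, C129 was lowest, below the other 3 libraries by a wide gap. Rgs5, a regulator of G protein signalling of pericytes, was highest in C129, at 80868 TPM, and had 3950, 10475 and 1636 TPM in the others. It was the most abundant transcript of C129, with Crip1 leading in the other 3 mural libraries.

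The remaining mural genes of the rule were patchy. Vtn, the matrix protein vitronectin, had 2137, 1380, 3.88 and 1342 TPM. Higd1b was seen in C129 (2508 TPM) and N14 (892 TPM) and listed at 0 in N16 and N22. Pdgfrb itself had 1314 TPM in N16 and 11.4 in N22 and was listed at 0 in C129 and N14. Its ligand Pdgfb was seen in 5 endothelial libraries, at 1.68 to 53.4 TPM, and listed at 0 in all mural libraries.

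Contractile genes outside the rule were higher in mural libraries for the most part. Of 30 genes, 23 passed the filter, 19 were higher in mural libraries and 1 in endothelial libraries, with a median difference of -6.31. Of the 30, 7 were listed at 0 in all endothelial libraries, and the direction of those that passed was thus fixed by the filter. The median was -3.86 without the filter, which admits genes seen in the mural class alone, and -3.07 when libraries with high Slc1a3 were kept. For 10 of the 23 genes that passed, every mural library lay above every endothelial one, as was so for 0.387% of all genes. List means ran from 5.43 to 7.43 in mural libraries, from 1.51 to 2.40 in endothelial libraries, and to at most 2.37 in the other 160. Without C140, 18 of 22 genes were higher in mural libraries, and in N libraries only, 17 of 21.

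Tagln, the actin-binding protein transgelin, had 1065, 15289, 21686 and 8850 TPM in C129, N14, N16 and N22, against at most 25.6 TPM in endothelial libraries, a difference of -10.72. Myh11, the heavy chain of smooth muscle myosin, had 247, 5626, 2200 and 1681 TPM, and the highest value in the other 160 libraries was 11.8 TPM. As for Acta2 and Myl9, C129 was lowest in both. Pln, the inhibitor of the calcium pump SERCA, had 1482, 2726, 694 and 985 TPM and was listed at 0 in all endothelial libraries. Sncg, gamma-synuclein, had 716, 2459, 327 and 3332 TPM and was likewise listed at 0 there. Against a class at 0, the size of the difference depends on the pseudocount.

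Crip1, a small LIM domain protein, was the most abundant of the contractile list, with 44572, 40668, 53874 and 85977 TPM. It was also seen in 4 endothelial libraries, at 13038 TPM in N3 and 11851 TPM in N6 among them, and listed at 0 in the other 4. Tpm2, a muscle tropomyosin, had 623, 942, 1898 and 1513 TPM against at most 3.25 TPM. The kinase that activates myosin light chain, Mylk, had 336, 1344, 772 and 879 TPM against at most 2.85 TPM. Tpm4, a non-muscle tropomyosin, was the 1 member higher in endothelial libraries, with 51.5 to 2840 TPM there and 2.34, 2.11, 259 and 0.58 TPM in the mural ones. Some contractile genes were seen in few libraries. Cnn1, calponin, was seen in N22 alone (374 TPM), and Des, desmin, in C129 (13.3 TPM) and N16 (38.6 TPM).

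Smooth muscle genes are known targets of serum response factor, which binds the CArG box, so the stretch before the start site was searched in RefSeq promoters (build GRCm38.p6, 250 bases before to 50 after each start) of the contractile list and the mural genes of the rule. Of 36 genes, 29 had a window, and 5 of these held a strict CArG box: Myl9, Cnn2, Filip1l, Myl6 and Srf. The box reads alike on both strands. Over all genes, 1.81% of the 27025 gene symbols and 1.63% of the 32851 windows held one. The 250 bases before the start are shown for the 3 of them with the largest differences, with the box in capitals. They lie at chr2:156775214-156775463 (Myl9), chr10:79988350-79988599 (Cnn2) and chr16:57548992-57549241 (Filip1l, an alternative start), all on the plus strand.
Myl9: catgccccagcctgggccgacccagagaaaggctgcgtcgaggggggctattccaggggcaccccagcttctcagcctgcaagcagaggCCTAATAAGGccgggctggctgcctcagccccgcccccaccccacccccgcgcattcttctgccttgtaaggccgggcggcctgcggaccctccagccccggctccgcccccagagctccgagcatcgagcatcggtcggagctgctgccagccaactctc
Cnn2: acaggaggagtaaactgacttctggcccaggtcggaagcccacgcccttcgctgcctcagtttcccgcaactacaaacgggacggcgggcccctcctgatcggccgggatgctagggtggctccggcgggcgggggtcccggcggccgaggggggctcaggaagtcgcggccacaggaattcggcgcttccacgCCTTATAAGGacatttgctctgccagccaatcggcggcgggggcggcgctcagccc
Filip1l: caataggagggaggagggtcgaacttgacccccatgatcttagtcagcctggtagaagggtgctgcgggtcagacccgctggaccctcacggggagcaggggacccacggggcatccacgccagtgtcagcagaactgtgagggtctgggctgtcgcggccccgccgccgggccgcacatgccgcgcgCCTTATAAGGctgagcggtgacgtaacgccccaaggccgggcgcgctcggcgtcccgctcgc
The box begins 161, 56 and 62 bases before the start in Myl9, Cnn2 and Filip1l. The differences of the 3 genes were -10.03, -6.82 and -6.31, that of Myl6 was -5.31, and that of Srf, the factor's own gene, was -0.52. Myl9 is a gene of the rule, so its difference was part of the choice of libraries. Acta2 and the other genes with a window had no strict match in it, and Tagln, Myh11, Actg2, Myocd, Aoc3, Pdgfrb and Higd1b had no window here. A match describes letters only, and binding was not measured.

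Pericyte genes were higher in mural libraries in part. Of 24 genes of this list in the table, 16 passed the filter, 12 were higher in mural libraries and 0 in endothelial ones, with a median difference of -4.25. Of the 24, 10 were listed at 0 in all endothelial libraries, and the direction of those that passed was thus fixed by the filter. The median was -2.80 without the filter, -2.61 with a pseudocount of 10 and -7.39 from mean TPM. Without C140, 12 of 16 genes were higher in mural libraries, and in N libraries only, 12 of 15. The list mean was 4.31 in C129, 4.55 in N14, 2.77 in N16 and 2.35 in N22, against at most 0.85 in endothelial libraries. The highest mean among the other 160 libraries was 1.29.

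Rgs4, a relative of Rgs5, had 776, 3690, 2581 and 6503 TPM in C129, N14, N16 and N22, and at most 13.4 TPM in endothelial libraries. Mcam, the adhesion molecule CD146, had 140.97, 2081, 86.9 and 69.7 TPM, and the closest endothelial library had 51.6 TPM (N5). Cox4i2, a subunit of cytochrome oxidase, had 1059, 764 and 770 TPM in C129, N14 and N16 and was listed at 0 in N22 and in all endothelial libraries. Ndufa4l2, an inducible mitochondrial protein of pericytes, had 4268 TPM in C129, 106.4 in N16, 207 in N22 and 0 in N14. Notch3, the Notch receptor of mural cells, had 108.1 TPM in C129 and 273 in N14 and at most 1.44 TPM in the other members. It reached 20.6 TPM among the other 160 libraries. The Notch target Hey2 was seen in C129, N14 and N22 (23.9, 105.9 and 18.3 TPM) and listed at 0 in every endothelial library.

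Several defining pericyte markers were absent or near 0. Kcnj8, a subunit of the potassium channel of brain pericytes, was listed at 0 in all 12 libraries, while it was seen in 6 of the other 160. Abcc9, its partner subunit, had at most 1.17 TPM in a mural library and 3.84 TPM in an endothelial one. Anpep, aminopeptidase N, was listed at 0 in all mural libraries, and Cspg4, the proteoglycan NG2, had 138.02 TPM in N14 and at most 1.52 TPM in the other mural libraries, beside 90.04 TPM in the endothelial library C139. C139 also had the highest oligodendrocyte lineage mean of the 12 (4.46), and the part of other cells in its Cspg4 was not tested. The name mural comes from the rule, whose genes chose the libraries and so cannot support it. Among these, Vtn had 3.88 TPM in N16, below the 4.13 TPM of the endothelial library N6. Outside the rule, Rgs4, Mcam, Tagln and Myh11 were higher in every mural library than in any endothelial one, unlike the markers of this paragraph. Rgs4 and Mcam were the only 2 of the 16 pericyte genes passing the filter for which this held. Tagln and Myh11 were among 10 of the 23 contractile genes passing.

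**Figure D3:**
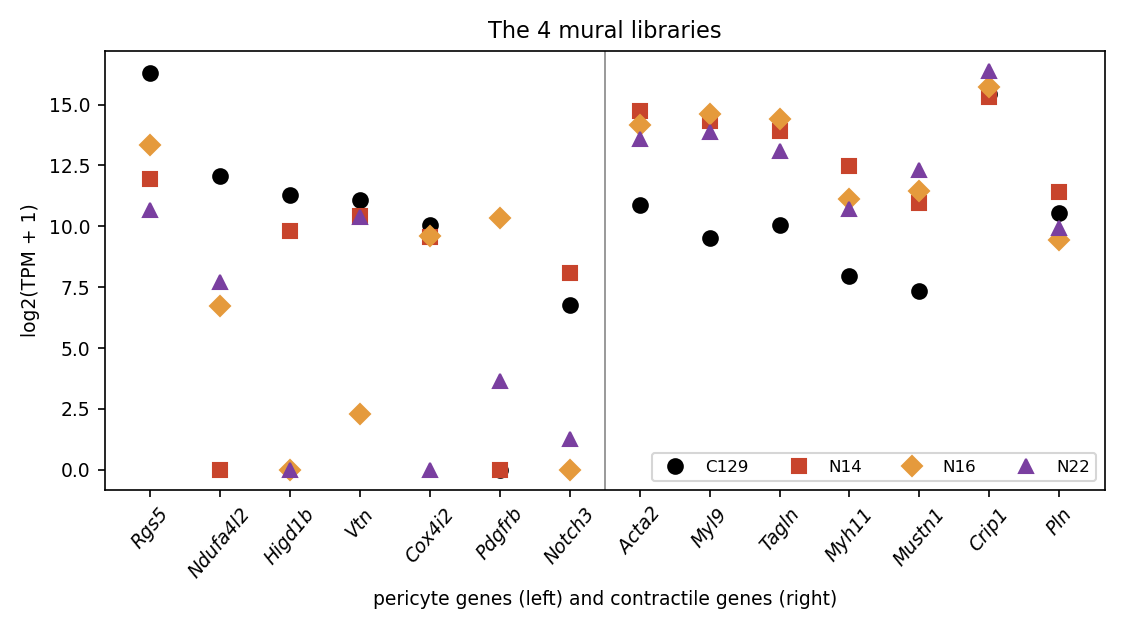
Values of log2(TPM + 1) (y axis) of 7 pericyte genes and 7 contractile genes (x axis) in each of the 4 mural libraries, 1 symbol per library. C129 is highest for Rgs5, Ndufa4l2, Higd1b, Vtn and Cox4i2 and lowest for Acta2, Myl9, Tagln, Myh11 and Mustn1. Pdgfrb is listed at 0 in C129, and Notch3 is higher in N14 than in C129.

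Among the 4 mural libraries, C129 differed from the others for a part of the pericyte and contractile genes. It was highest for Rgs5, Vtn, Higd1b, Cox4i2 and Ndufa4l2, and lowest for Acta2, Myl9, Tagln, Myh11, Tpm1, Tpm2, Mylk and Mustn1. Of these, Rgs5, Vtn, Higd1b, Acta2 and Myl9 are genes of the rule. Other pericyte genes lay the other way: Rgs4 was lowest in C129, and Pdgfrb was listed at 0 there against 1314 TPM in N16. Notch3, Mcam and Aspn were higher in N14 than in C129, as was the pericyte list mean. Among contractile genes, Pln was second highest in C129. C129 was also the only C library of the class, with 2527 TPM of eCFP, the cyan fluorescent transgene of the series, against 30.97 to 43.8 TPM in the N mural libraries. Title letter, eCFP level and expression pattern cannot be told apart with 1 such library. N14 and N16 alone had Mgp, the matrix Gla protein of arterial walls, at 1120 and 3940 TPM. N16 alone had Gja4, a gap junction connexin of arterial endothelium, at 2355 TPM.

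Arterial and venous genes gave no order among endothelial libraries. Of 11 arterial genes, 2 passed the filter, and both (Mgp and Efnb2) were higher in mural libraries, also without C140 and in N libraries only. Efnb2 had 0, 0.45, 1.31 and 331 TPM in C129, N14, N16 and N22, so its call rested on N22, which both of these settings kept. Mgp was listed at 0 in all endothelial libraries, so its direction was fixed by the filter. The venous transporter Slc38a5 had 2519 TPM in N3, 1023 in N7 and 114.7 in C139, with 3.63 TPM in C140 and 0 in the other 8 members. Vwf, von Willebrand factor, was at most 2 TPM in the 12 libraries. Nr2f2, the venous transcription factor COUP-TFII, was higher in mural libraries, with 846, 423, 104.95 and 29.9 TPM, and reached 219 TPM in C140.

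Signals between the cell types were split between the classes. Of 18 PDGF and TGF-beta pathway genes passing, 7 were higher in endothelial and 3 in mural libraries. Without C140 the counts were 7 and 2 of 15, and in N libraries only, 6 and 2 of 13. Cxcl12, a chemokine, ran up to 2467 TPM in N26 and was listed at 0 in 3 endothelial libraries, against at most 0.85 TPM in mural ones. S1pr1, the sphingosine phosphate receptor of endothelium, ran from 0.68 to 153 TPM and was at most 0.67 TPM in mural libraries, so the classes were separate by a margin too small to read. The endothelin receptor Ednra was seen in C129 and N14 at 31.2 and 113.1 TPM. Of 13 VEGF and Notch genes passing, 3 were higher in mural libraries (Hey2, Jag1 and Notch2) and 0 in endothelial ones. Without C140, 4 were higher in mural and 0 in endothelial libraries, and in N libraries only, 3 were higher in each.

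Matrix and membrane genes differed gene by gene. Of 20 basement membrane and integrin genes passing, 2 were higher in endothelial and 5 in mural libraries, with a median difference of 0.09. Without C140 the counts were 2 and 4, and in N libraries only, 3 and 4. Lamb2, a laminin chain, had 206, 184, 0 and 320 TPM in C129, N14, N16 and N22, and at most 0.50 TPM in endothelial libraries. Fn1, fibronectin, was seen in 7 endothelial libraries at up to 510 TPM and listed at 0 in all mural libraries. Of 8 caveola genes passing, 5 were higher in mural and 1 in endothelial libraries. Without C140 these were 4 and 1, and in N libraries only, 5 and 1. Ptrf, the coat protein cavin-1, had 348, 1335, 977 and 487 TPM against 15.8 to 1029 TPM, so the ranges overlapped. Cav1, caveolin-1, had 615, 453, 501 and 0 TPM against 0 to 3134 TPM; its difference was -2.56, and 0.52 when taken from mean TPM.

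**Figure D4:**
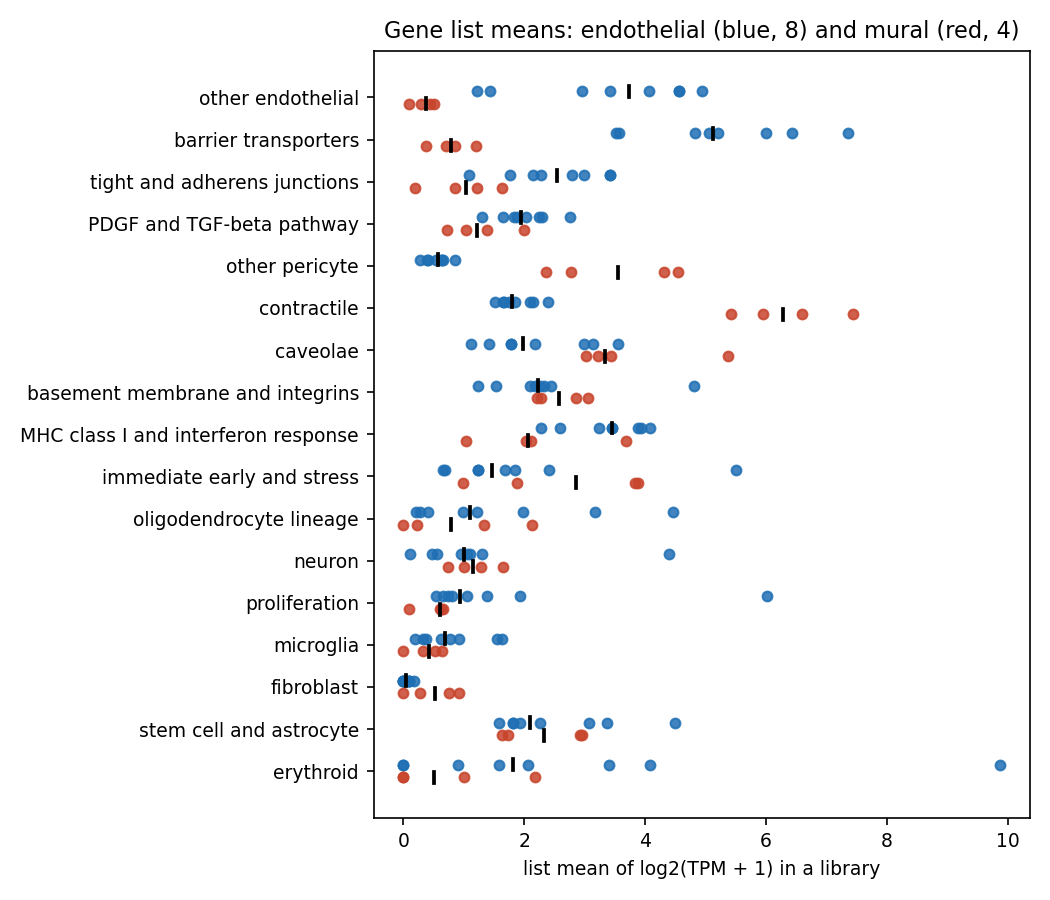
Mean log2(TPM + 1) over each gene list (x axis) for each library, with endothelial libraries in blue, mural libraries in red and black bars at class medians; lists are in rows. The classes do not overlap for other endothelial, barrier transporter, other pericyte and contractile genes, while single endothelial libraries lie far out for proliferation, neuron and erythroid genes.

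Class I antigen genes and stress genes overlapped between the classes. Of 10 class I and interferon genes passing, 5 were higher in endothelial libraries and 0 in mural ones. Without C140 the counts were 7 and 0, and in N libraries only, 5 and 1. B2m, the light chain of class I molecules, ran from 12.2 (C140) through 6715 to 25429 TPM, against 1341, 1654, 2688 and 0 TPM. Of 18 immediate early and stress genes, 6 were higher in mural and 3 in endothelial libraries, with the same counts without C140 and in N libraries only. Hspb1, a small heat shock protein, had 82.4, 52.04, 2102 and 453 TPM in mural libraries and was listed at 0 in 5 endothelial ones. Klf4, an endothelial transcription factor that flow induces, ran up to 425 TPM in N6 and was listed at 0 in 3 endothelial libraries and 3 mural libraries.

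Energy genes lay in both directions, and their balance depended on the libraries compared. Of 25 oxidative phosphorylation genes, 7 were higher in endothelial and 8 in mural libraries, with a median difference of -1.48. Without C140 the counts were 4 and 10, and in N libraries only, 6 and 12. Uqcrh and Atp5a1, subunits of complex III and of ATP synthase, were separate: Uqcrh had 1897, 3674, 1856 and 3275 TPM against at most 1498 TPM, and Atp5a1 had 1066, 1016, 749 and 296 TPM against at most 134.97 TPM. Of 14 glycolysis genes, 1 was higher in endothelial and 3 in mural libraries. Without C140 the counts were again 1 and 3, and in N libraries only, 0 and 5.

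Nes, the filament gene used to mark neural stem cells, was seen in 5 endothelial libraries, at 168 TPM in C139, 197 in N3, 10.4 in N5, 298 in N12 and 596 in N26. Of these, C139 also had 2861 TPM of Fabp7. The highest value in the other 160 libraries was 406 TPM. In mural libraries it had 18.2 TPM in C129 and at most 0.30 TPM in the others. Its difference was 3.46, with means of 4.62 ± 3.93 (SD, n = 8) and 1.16 ± 2.08 (SD, n = 4), so the ranges overlapped. Vim, vimentin, lay in both classes, with 2.68 to 2461 TPM in endothelial libraries and 0, 1728, 807 and 1147 TPM in mural ones.

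eCFP did not follow the classes. It ran from 17.3 through a median of 129.5 to 988 TPM in endothelial libraries, and was 2527, 43.8, 39.8 and 30.97 TPM in C129, N14, N16 and N22. The 3 C members held the 3 highest values. All 12 lay below the median of the other 160 libraries, 7742 TPM.

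Outside the lists, the genes furthest to the endothelial side were led by Tpt1, a translationally controlled protein, which ran from 1202 to 9368 TPM against 207, 0, 11.1 and 2.10 TPM in mural libraries (difference 8.47). Tmsb10, an actin-binding thymosin, ran from 225 to 7347 TPM against at most 150 TPM. Both were separate, yet Tpt1 was also seen in 154 of the other 160 libraries. Kitl, the ligand of the Kit receptor, was listed at 0 in N5, had 1.76 TPM in C139 and 15.9 in C140, and had 693 to 1641 TPM in the other 5 endothelial libraries, against at most 1.01 TPM in mural ones. The others were 1810037I17Rik, Ly6e, Rps24, Eif3k, Ly6i, Rps27a and Sgms1. Whether reads of the ribosomal protein genes among them were shared with similar copies was not tested.

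On the mural side, genes outside the lists were more uniform. Fxyd1, phospholemman, a regulator of the sodium pump, had 2141, 4079, 3988 and 1356 TPM against at most 24.4 TPM. Fstl1, a follistatin-like secreted protein, had 1131, 776, 874 and 846 TPM against at most 2.65 TPM (9.81 ± 0.23 against 0.42 ± 0.68 on the log2 scale). Mfge8, a secreted glycoprotein of vessel walls and glia, had 1415, 1264, 2238 and 1896 TPM against at most 17.9 TPM, and was seen in 158 of the other 160 libraries. Ano1, a calcium-activated chloride channel of smooth muscle, had 256, 498, 96.6 and 480 TPM against at most 1.86 TPM, and was seen in 6 of the other 160. The classes were separate for these 4 genes and for Plac9b, while ORF63, Phyh, Nrip2 and Slc38a11 were each listed at 0 in 1 mural library.

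Over all genes outside the lists, libraries of 1 class were hardly more alike than libraries of different classes. Across 7693 such genes the median Spearman correlation was 0.21 for the 28 pairs of endothelial libraries, 0.22 for the 6 pairs of mural libraries and 0.20 for the 32 pairs between the classes. These correlations are across genes, which are not independent, and describe libraries with many values at 0. Over all 23307 genes, 81.8% of the values in the 12 were 0, and the share among the 7693 genes was not computed. No pair of the 12 libraries held identical values.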

How the data were processed

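Single cells of the dentate gyrus were profiled by RNA-seq, 1 library per cell. The authors deposited 1 table of TPM, a length-corrected share of transcripts, for 23307 genes, scaled to the same total in each library; the submitters' processing notes name RSEM and the mouse build mm9, with no role or order. Depth per library is unknown, so no counting interval on expression could be given. Of the 172 columns used, 171 matched 1 sample title, and C27, which more than 1 sample could match, was used only as a C library.

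Scores, log2(TPM + 1) means, SDs and differences were computed in Python 3.11.15 with pandas 2.3.3, numpy 2.4.6 and scipy 1.17.1, and the calculation was tested on simulated data. Genes at a TPM of at least 1 in 2 or more of the 12 libraries were kept, and a difference of at least 2 was the call. No test between the classes was made, because no animal is named and each class is then 1 sample. The limits used to flag single libraries compare cells within a class and are descriptive only. Genes named in the text are those of the rule, a set of known markers, up to 4 members of each list with the largest difference among those seen in at least 50% of the libraries of the higher class, and the 10 genes outside the lists furthest to each side among those seen in at least 75% of them. Some genes that this rule names are not reported here. Named beyond this, after their values were seen, were Col3a1, Dcn, Kdr, Tek, Nos3, Car4, Slco1c1, Bsg, Jam3, Marveld2, Tpm1, Tpm2, Tpm4, Mylk, Mustn1, Cnn1, Ndufa4l2, Gja4, Vwf and Ednra, and the genes of the promoter search. The members and the gene lists were chosen with earlier results of these data known. Promoters came from RefSeq (GRCm38.p6), matched by symbol only, since the build differs from that of the table. Alternatives covered the pseudocount, the filter, scaling, the mean, the Slc1a3 limit, N libraries alone and leaving out each mural library; the scaling by multiplication and the omission of C140 were chosen after the data were seen.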

Additional observations from a re-analysis of the deposited data

Results flagged for a closer look

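Of 54 sets of values examined (list means and library measures in each class), 8 had 1 library far from the others of its class. Far meant a gap to the next library above 0.526 of the class range for the 8 endothelial libraries. For the 4 mural libraries the limit was 0.829. These limits are meant to flag about 1 in 20 by chance, which takes libraries and sets as independent. The sets here are overlapping measures of the same libraries, so their number cannot be read against that rate. Among the mural libraries, C129 was far above the others in eCFP (11.30 on the log2 scale) and in the mean of the VEGF and Notch list (2.45). N14 was far below the others in the mean of the proliferation list (0.0973, against 0.61 to 0.65), but all of these means lay near the floor. Among the endothelial libraries, C140 was far above the others for proliferation genes (6.01) and for neuron genes (4.39). N26 was far above for erythroid genes (9.87) and for immediate early and stress genes (5.50). N5 was far above for basement membrane and integrin genes (4.80).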

How the results depend on the processing

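With a pseudocount of 0.1, 2374 genes were higher in endothelial and 1016 in mural libraries, and the list medians were 5.94 (barrier), -6.07 (pericyte) and -7.45 (contractile). With a pseudocount of 10 these were 307, 299, 2.17, -2.61 and -4.72, and the rule then took in 14 endothelial and 9 mural libraries. Without the filter the pericyte and contractile medians were -2.80 and -3.86. Shifting log values to 1 median gave 337 and 1548 genes, with medians of -5.39 and -7.46, and zeros were shifted too; multiplying libraries gave 710 and 1019 genes. From mean TPM, 3206 and 1206 genes were higher, the medians were 7.16 (other endothelial), 7.46 (barrier) and -7.39 (pericyte), and Cav1 reversed to 0.52. Keeping libraries with high Slc1a3 gave -2.87 (pericyte) and -3.07 (contractile). Leaving out each mural library gave pericyte medians from -5.48 (without N16) to -3.31 (without N14); Pgk1 ran from -3.14 to 0.0067 (without N22) and so reversed. The 4 main list medians kept their direction under each of these settings. Their lists hold markers of the contrast that the rule used, and some members were listed at 0 throughout 1 class. The kept direction was therefore largely fixed in advance and does not show that the medians are stable. The cause of these shifts was not tested. No paired analysis was possible because the comparison comes from no test and the title numbers tie no cells. Depth is unknown, so an absent gene in a single cell may be an undetected one.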

Other observations

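The numbers in the library titles follow eCFP exactly. From each library to the next number of the same letter, eCFP TPM never rose: 0 rises over the C libraries (33811 down to 482 TPM), 0 over the 26 N libraries (1306 down to 17.3 TPM) and 0 over the 4 R libraries (107.86 down to 5.01 TPM). A title number is therefore a rank of eCFP here rather than an order of collection, and the high numbers of C129, C139 and C140 restate their low eCFP among C libraries.

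Libraries outside the rule also held vascular genes. N4 had 10350 TPM of Cldn5, above the 824 TPM of the highest endothelial library, with Cdh5, Esam and Egfl7 listed at 0. N21 had 33005 TPM of Ly6c1 and 172 TPM of Slco1a4, with the other 5 endothelial genes of the rule listed at 0. C85 had all of the rule's endothelial genes except Cldn5, at 22.5 to 12419 TPM, beside 2699 TPM of Slc1a3. C128 had 2115 TPM of Vtn and 413 TPM of Rgs5 with Acta2 listed at 0, beside 3059 TPM of Slc1a3.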
